A study of Homo sapiens with 16 samples.

Results

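The 7 genes described here encode the cyclin-dependent kinase (CDK) inhibitors of 2 families: CDKN1A, CDKN1B and CDKN1C (the 3 CIP/KIP genes) and CDKN2A, CDKN2B, CDKN2C and CDKN2D (the 4 INK4 genes). They were taken by gene symbol, with earlier results of these data known, and looked up among the 23396 genes found in any of 4 deposited comparison tables. Of the 7 genes, 6 had an entry in at least 1 of the tables and 5 in all 4.

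The study sequenced poly(A) RNA from U2OS, a human osteosarcoma cell line. Cells received either a control siRNA, siControl, or an siRNA targeting the transcription factor RFX7, siRFX7, which lowers the RFX7 transcript without removing the gene. Each was then kept for 24 h in the solvent DMSO or in 10 µM Nutlin-3a, which stabilises p53 by blocking its binding to MDM2. The 4 groups were siControl with DMSO, siControl with Nutlin-3a, siRFX7 with DMSO and siRFX7 with Nutlin-3a, with 4 libraries in each and 16 in all. All 4 groups were transfected cultures of the same line, with no untransfected group. How many siRNA sequences made up siRFX7 was not stated in the sources used here.

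CDK inhibitors restrain the kinases that drive cells through the division cycle. CIP/KIP proteins bind CDK-cyclin complexes, above all those of CDK2, whereas INK4 proteins bind CDK4 and CDK6 and keep the D-type cyclins off them. Either way the retinoblastoma protein RB1 is phosphorylated less and E2F factors stay repressed. CDKN1A is a direct transcriptional target of p53, and CDKN1B abundance is set largely by degradation of the protein, which mRNA counts do not show.

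The files gave, for each gene and each comparison of 2 groups, the base mean (the mean normalised read count over 8 libraries), a DESeq2 log2 fold change with its standard error (SE) and an adjusted p. Single libraries were not analysed here. Group levels were therefore rebuilt from the base mean and the fold change, and brought to 1 scale across tables. Their 95% intervals carry the error of the fold change only. A gene was called at an adjusted p under 0.05. Base means summed to between 27946376 and 35311111 normalised counts over the genes of a table. Nothing in the labels says that the libraries of a group came from separate cultures, so the p-values measure the spread between these libraries, which may be technical. In bulk RNA, a change per cell and a change in the share of cells that express a gene cannot be told apart.

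RFX7 itself was lower with its siRNA, with log2 fold changes of -2.42 ± 0.07 (SE) under DMSO and -2.37 ± 0.07 under Nutlin-3a per the authors' deposited tables. Of 9 osteoblast lineage markers, 6 were present per the authors' deposited table for siRFX7 under DMSO, among them COL1A1 at a base mean of 38660.5 and RUNX2 at 357.5, while SP7, IBSP and BGLAP had no entry. COL1A2 was present at only 11.82, where the lowest base mean of any gene was 6.82. None of 3 blood markers had an entry there (0 of 3), and 2 of 3 epithelial markers did, EPCAM at a base mean of 213.8 and CDH1 at 150.1 per the authors' deposited table. Of 3 endothelial markers 2 had an entry, VWF at 14.89 and CDH5 at 6.86, so an entry alone can mean very few counts.

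The start regions of the members that the results turn on are shown first, since these members moved in opposite directions. Each is the RefSeq window on GRCh38.p14 from 250 bases before to 50 bases after an annotated start, read 5′ to 3′ on the gene's own strand, 300 bases in all. Capitals mark matches to GGGCGG (the GC box bound by SP1), CCAAT (the CCAAT box) and GTTGCCA (a common arm of the X box bound by RFX factors), each searched on both strands. The windows are chr6:36678464-36678763 (plus strand) for CDKN1A, chr12:12717118-12717417 (plus) for CDKN1B, chr1:50968456-50968755 (plus) for CDKN2C and chr19:10568930-10569229 (minus) for CDKN2D.
CDKN1A: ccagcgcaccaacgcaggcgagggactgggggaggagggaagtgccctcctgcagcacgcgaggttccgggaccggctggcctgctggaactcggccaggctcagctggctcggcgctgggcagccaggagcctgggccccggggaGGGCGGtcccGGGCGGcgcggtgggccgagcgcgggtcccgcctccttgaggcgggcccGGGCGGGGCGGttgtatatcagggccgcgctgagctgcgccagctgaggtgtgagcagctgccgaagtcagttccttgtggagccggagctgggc
CDKN1B: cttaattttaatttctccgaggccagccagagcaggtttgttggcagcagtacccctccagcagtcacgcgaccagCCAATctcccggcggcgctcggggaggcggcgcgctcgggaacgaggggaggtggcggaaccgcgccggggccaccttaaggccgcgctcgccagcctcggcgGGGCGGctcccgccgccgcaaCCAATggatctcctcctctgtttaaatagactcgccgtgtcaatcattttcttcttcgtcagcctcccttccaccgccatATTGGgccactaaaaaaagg
CDKN2C: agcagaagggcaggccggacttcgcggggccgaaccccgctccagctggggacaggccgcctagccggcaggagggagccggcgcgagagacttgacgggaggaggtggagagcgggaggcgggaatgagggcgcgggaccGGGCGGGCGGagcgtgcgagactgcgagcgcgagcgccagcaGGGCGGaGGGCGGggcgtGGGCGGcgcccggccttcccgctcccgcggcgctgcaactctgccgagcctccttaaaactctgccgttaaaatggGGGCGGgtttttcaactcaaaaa
CDKN2D: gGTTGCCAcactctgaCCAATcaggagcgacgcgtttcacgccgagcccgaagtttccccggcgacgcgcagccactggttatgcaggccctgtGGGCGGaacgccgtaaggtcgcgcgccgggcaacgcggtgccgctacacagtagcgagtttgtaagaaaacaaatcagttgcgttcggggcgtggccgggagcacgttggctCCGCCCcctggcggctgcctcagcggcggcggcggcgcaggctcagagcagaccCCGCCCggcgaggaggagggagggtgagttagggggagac
CDKN1A held 4 GC boxes, at -104, -94, -45 and -40 from the start, the last 2 overlapping, and no CCAAT box. CDKN1B held 1 GC box and 3 CCAAT boxes. The CDKN2C window held 6 GC boxes, of which the first pair overlap. RefSeq lists other CDKN2C starts as well: the window at chr1:50969995-50970294 held 1 GC box and 1 CCAAT box, the window at chr1:50960495-50960794 held none of these words, and which start U2OS cells use was not tested. CDKN2D held 3 GC boxes, 1 CCAAT box and, at -249, 1 GTTGCCA. Across 35116 RefSeq windows of this length, 44.95% held GGGCGG, 34.61% CCAAT and 4.081% GTTGCCA. The cell cycle homology region word TTTGAA (15.16% of windows) and the E2F words TTTGGCGC and TTTCGCGC (1.148%) occurred in none of the windows of the 6 members that the table held. That says only that these letters are not in these windows. The same search found 2 GC boxes in the CDKN2B window and 2 in the inner of the CDKN2A windows.

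CDKN1A and CDKN1C rose with Nutlin-3a in siControl cells, and CDKN1B, CDKN2C and CDKN2D fell. Of the 6 members that the authors' deposited table held for it, 2 were higher, 3 were lower and 1 was not called. Over all 23353 genes of the authors' deposited table, 18.3% were called higher and 19.6% lower. These shares include many low-count genes, which were called less often. With only genes of a base mean of at least 100 tested, 3512 were called higher and 4492 lower. The shares over all genes given below likewise understate the share among well-expressed genes. In siRFX7 cells, 1 of 5 members was higher, 3 were lower and 1 was not called, beside 18.7% of genes called higher and 20.3% lower per the authors' deposited table. The CIP/KIP genes thus went in both directions, while the INK4 genes that were called, CDKN2C and CDKN2D, fell in both.

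**Figure D1:**
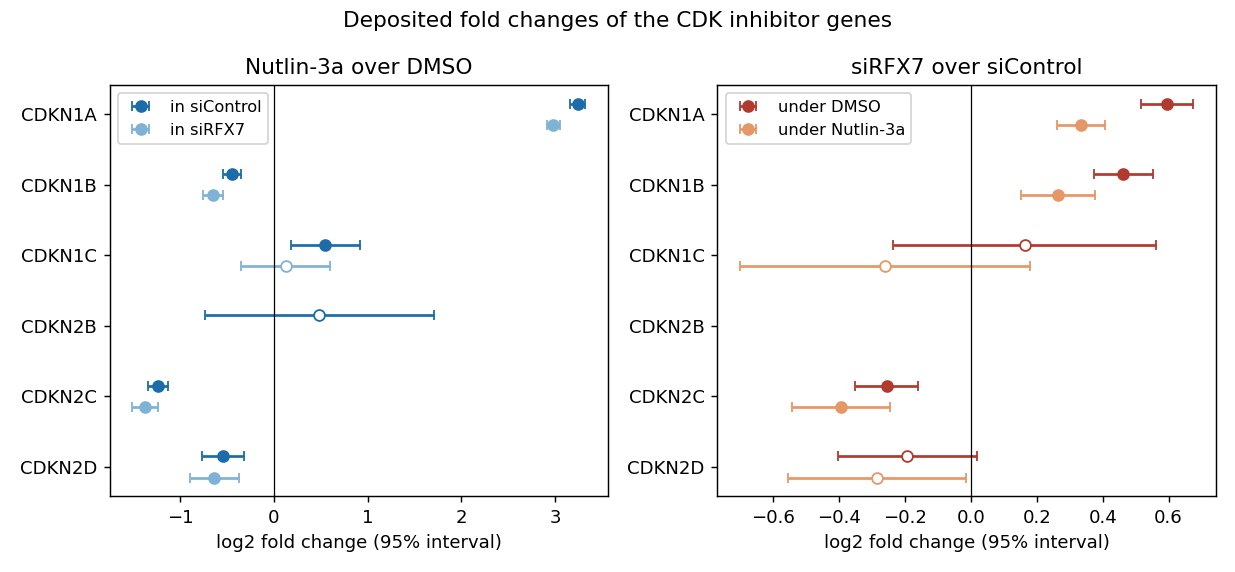
Deposited log2 fold changes (horizontal axis) of each CDK inhibitor gene for Nutlin-3a over DMSO (left) and siRFX7 over siControl (right), with 95% intervals from the authors' standard errors; filled points have an adjusted p under 0.05. CDKN1A lies far to the right with Nutlin-3a at 3.24 and 2.98, CDKN2C to the left at -1.24 and -1.38, and the scales of the panels differ.

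CDKN1A (ENSG00000124762, chromosome 6, 36676460 to 36687339, plus strand, on GRCh38) encodes p21, the CIP/KIP inhibitor that p53 induces. Its level was 4108 normalised counts in siControl with DMSO (95% interval 3911 to 4314). It was 38869 in siControl with Nutlin-3a (37791 to 39952), 6209 in siRFX7 with DMSO (5951 to 6480) and 48981 in siRFX7 with Nutlin-3a (47910 to 50070). Both Nutlin-3a groups lay far above both DMSO groups, and within each treatment the siRFX7 group was the higher. The log2 fold change with Nutlin-3a was 3.24 ± 0.04 (SE) in siControl per the authors' deposited table, a 9.46-fold rise, and its adjusted p was deposited as 0. In siRFX7 cells it was 2.98 ± 0.04 per the authors' deposited table, also with an adjusted p deposited as 0. CDKN1A had the highest absolute Wald statistic of any gene in both tables, but not the highest fold: it ranked 147 of 23353 by fold in siControl and 75 of 21382 in siRFX7. With siRFX7, CDKN1A was higher by 0.60 ± 0.04 under DMSO (adjusted p 5.40e-48) and by 0.33 ± 0.04 under Nutlin-3a (adjusted p 3.79e-18) per the authors' deposited tables.

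CDKN1B (ENSG00000111276, chromosome 12, 12715058 to 12722371, plus strand) encodes p27, which holds CDK2 inactive in resting cells. Its level was 1484 normalised counts in siControl with DMSO, 1084 in siControl with Nutlin-3a, 2044 in siRFX7 with DMSO and 1302 in siRFX7 with Nutlin-3a. The siRFX7 DMSO group was the highest of the 4, and the intervals of the 4 groups, the nearest being 1244 to 1360 for siRFX7 with Nutlin-3a and 1430 to 1537 for siControl with DMSO, did not overlap. With Nutlin-3a it fell, at -0.45 in log2 in siControl (SE 0.05, adjusted p 9.63e-19) and -0.65 in siRFX7 (SE 0.05, adjusted p 4.15e-32) per the authors' deposited tables. With siRFX7 it rose by 0.46 ± 0.05 under DMSO (adjusted p 2.77e-22) and by 0.26 ± 0.06 under Nutlin-3a (adjusted p 2.82e-05) per the authors' deposited tables. CDKN1A and CDKN1B thus shared the direction of the siRFX7 change but not that of the Nutlin-3a change.

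CDKN1C (ENSG00000129757, chromosome 11, 2883213 to 2885773, minus strand) encodes p57 and is imprinted. It was the scarcest member with an entry in all 4 tables, at 52.9 normalised counts in siControl with DMSO, 77.4 in siControl with Nutlin-3a, 59.2 in siRFX7 with DMSO and 64.5 in siRFX7 with Nutlin-3a. These levels carry wide intervals, from 45.1 to 61.1 in the lowest group and from 66.5 to 87.8 in the highest, and the siRFX7 groups overlap each other. Its rise with Nutlin-3a in siControl was 0.55 ± 0.19 (adjusted p 0.0112) per the authors' deposited table, which is not called at a threshold of 0.01. In siRFX7 the change was 0.12 ± 0.24 (adjusted p 0.748) per the authors' deposited table. Neither siRFX7 comparison passed the test, with 0.16 ± 0.20 under DMSO and -0.26 ± 0.22 under Nutlin-3a per the authors' deposited tables.

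CDKN2C (ENSG00000123080, chromosome 1, 50960745 to 50974633, plus strand) encodes the INK4 protein p18. Its level was 1671 normalised counts in siControl with DMSO (1620 to 1721) and 709 in siControl with Nutlin-3a (674 to 746). It was 1399 in siRFX7 with DMSO (1349 to 1450) and 539 in siRFX7 with Nutlin-3a (503 to 576). The 4 intervals did not overlap, and the order was the reverse of that of CDKN1A. The fall with Nutlin-3a was the largest among the members with an entry: the log2 fold change was -1.24 ± 0.05 in siControl (adjusted p 1.16e-115) and -1.38 ± 0.07 in siRFX7 (adjusted p 2.09e-87) per the authors' deposited tables. By fold it ranked 154 from the lowest of 23353 genes in siControl and 74 from the lowest of 21382 in siRFX7. CDKN2C was also the member called lower with siRFX7, at -0.26 ± 0.05 under DMSO (adjusted p 1.53e-06) and -0.39 ± 0.08 under Nutlin-3a (adjusted p 1.70e-06) per the authors' deposited tables.

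CDKN2D (ENSG00000129355, chromosome 19, 10566462 to 10569059, minus strand) encodes the INK4 protein p19. It stood at 259 normalised counts in siControl with DMSO, 178 in siControl with Nutlin-3a, 226 in siRFX7 with DMSO and 145 in siRFX7 with Nutlin-3a. Both Nutlin-3a groups lay below both DMSO groups, whereas the intervals of the DMSO groups overlapped each other (241 to 277 and 209 to 244). With Nutlin-3a it fell, at -0.54 in log2 in siControl (SE 0.11, adjusted p 7.61e-06) and -0.64 in siRFX7 (SE 0.13, adjusted p 9.28e-06) per the authors' deposited tables. The siRFX7 values were -0.19 ± 0.11 (adjusted p 0.153) under DMSO and -0.29 ± 0.14 (adjusted p 0.1) under Nutlin-3a per the authors' deposited tables, and neither was called.

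CDKN2B (ENSG00000147883, chromosome 9, 22002903 to 22009363, minus strand), which encodes the INK4 protein p15, had an entry only for Nutlin-3a in siControl. There its base mean was 5.44 per the authors' deposited table and its log2 fold change was 0.48 ± 0.62 (adjusted p 0.613), too imprecise to give a direction. The rebuilt levels were 4.54 with DMSO (2.56 to 6.80) and 6.34 with Nutlin-3a (4.07 to 8.32), which overlap. The lowest base mean of any gene was 2.46 in that table and 3.27, 6.82 and 5.49 in the tables for Nutlin-3a in siRFX7, siRFX7 under DMSO and siRFX7 under Nutlin-3a. CDKN2A (ENSG00000147889, chromosome 9, 21967753 to 21995301, minus strand), which encodes p16 and, in another reading frame, the p53 regulator ARF, had an entry in 0 of the 4 tables and was not analysed here. The tables hold only genes with an adjusted p, so a missing entry gives no level.

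Divided by the length of the annotated exons, the levels could be set against each other. In siControl with DMSO the order per kb of exon was CDKN1A at 1347 normalised counts, CDKN1B at 528, CDKN2C at 504, CDKN2D at 173, CDKN1C at 21.3 and CDKN2B at 1.12. CDKN1B and CDKN2C were neighbours whose intervals overlapped and whose order rests on the length used: per kb of the longest transcript they were at 558 and 575. Each of the other neighbours differed by more than its interval under both lengths. The 5 members with full data summed to 2572 normalised counts per kb in siControl with DMSO and 13493 with Nutlin-3a, and to 3359 and 16808 in siRFX7. CDKN1A made up 52.37% of that sum in siControl with DMSO and 94.45% with Nutlin-3a, and 60.61% and 95.55% in siRFX7. Without CDKN1A the sum went the other way, from 1225 to 749 in siControl and from 1323 to 748 in siRFX7. The pooled inhibitor mRNA thus moved from a mixture in which CDKN1B (20.52%) and CDKN2C (19.58%) had sizeable shares to one that was nearly all CDKN1A.

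**Figure D2:**
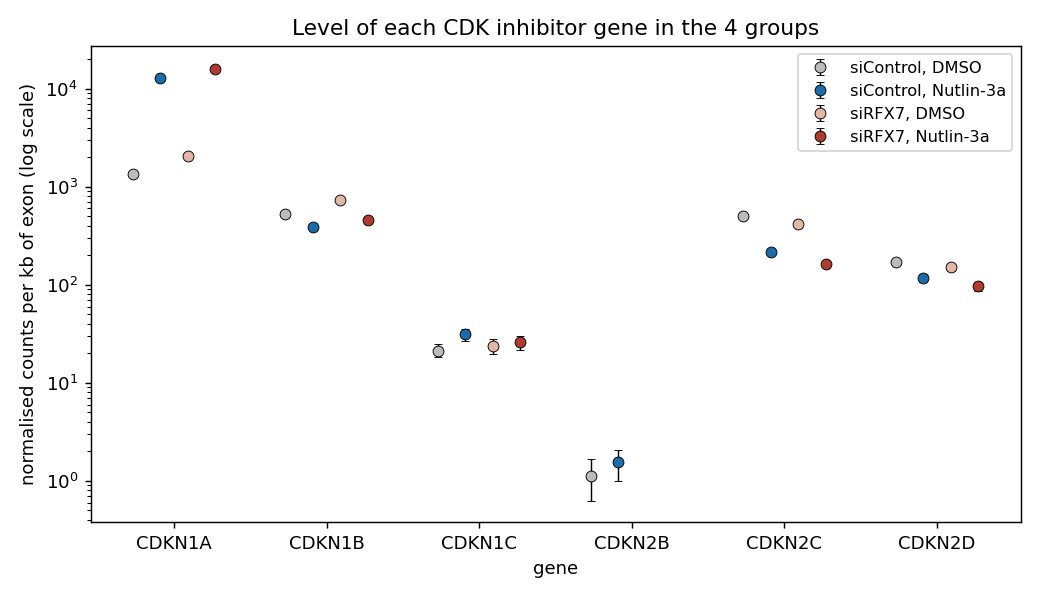
Rebuilt group level of each gene, in normalised counts per kb of annotated exon on a log axis, for the 4 groups; bars are 95% intervals that carry the error of the fold change only. CDKN1A climbs from 1347 to 12744 in siControl and from 2036 to 16059 in siRFX7, CDKN2C drops in both, and CDKN2B has values for the siControl groups alone.

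**Figure D3:**
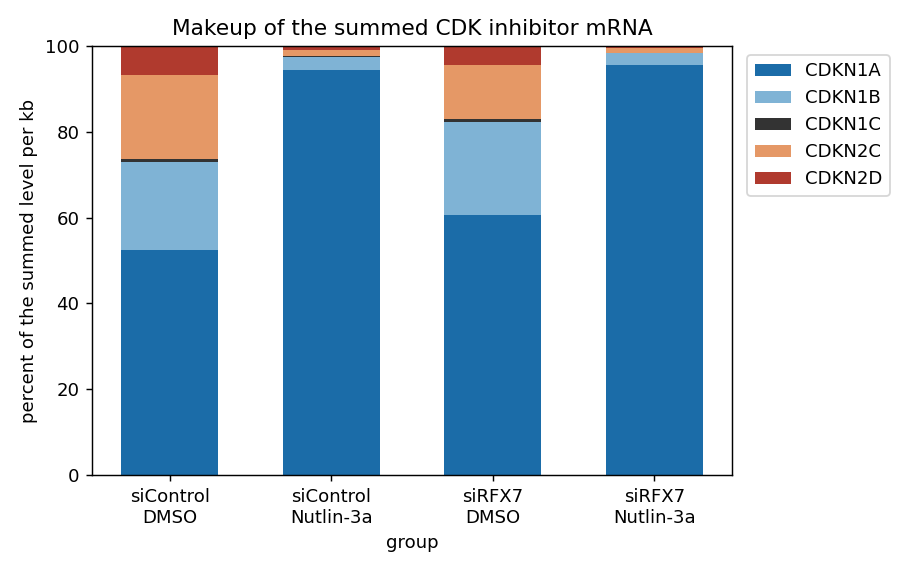
Share of each of 5 CDK inhibitor genes in their summed level per kb, as stacked bars from 0 to 100 percent for the 4 groups; no error bars are drawn. CDKN1A fills 52.37% and 60.61% of the DMSO bars and 94.45% and 95.55% of the Nutlin-3a bars.

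With siRFX7 under DMSO, CDKN1A and CDKN1B were higher and CDKN2C was lower: 2 of 5 members were called higher, 1 lower and 2 were not called. Of its 19511 genes, 19.9% per the authors' deposited table were called higher and 17.5% lower. Under Nutlin-3a the counts were the same, for the same genes, beside 17.2% of 20335 genes called higher and 15.4% lower per the authors' deposited table. These 2 comparisons share no library. Each shares a group with the Nutlin-3a comparisons, however, so the siRFX7 and Nutlin-3a values of a gene are not independent. Relative to the siControl group of the same treatment, RFX7 stood at 18.6% with its siRNA under DMSO and at 19.4% under Nutlin-3a. RFX7 itself was higher with Nutlin-3a, by 0.25 ± 0.05 in siControl and 0.30 ± 0.09 in siRFX7 per the authors' deposited tables.

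The responses to Nutlin-3a in siControl and siRFX7 rest on different libraries, so their difference could be tested directly. It was taken as siRFX7 minus siControl on the log2 scale, with a 2-sided normal test and Benjamini-Hochberg adjustment over 21339 genes. CDKN1A was the member for which the responses differed, by -0.26 ± 0.05 (95% interval -0.37 to -0.16, adjusted p 3.05e-04). With the test statistics rescaled by their spread among genes of like base mean, that adjusted p was 0.0123. Of 5 members, 0 were called higher and 1 lower, while 0.173% of all genes were called higher and 0.764% lower. For CDKN1B the difference was -0.20 ± 0.07 (interval -0.34 to -0.06, unadjusted p 0.00646, adjusted p 0.295). For CDKN2C it was -0.14 ± 0.09 (-0.31 to 0.03, adjusted p 0.946), and for CDKN2D -0.09 ± 0.17, with an adjusted p of 1. The difference for CDKN1C, -0.43 ± 0.31, had an interval from -1.03 to 0.18 and so gave no direction. All 5 estimates were negative, with a median of -0.20 beside -5.53e-04 over all genes tested, but 4 of the 5 were not called. The sign stands for a smaller estimated rise of CDKN1A and CDKN1C and a larger estimated fall of CDKN1B, CDKN2C and CDKN2D. The members come from the same libraries and are not replicates, so the shared sign is a description only.

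For CDKN1A the direction of that difference depends on the scale. On the log2 scale the response was smaller in siRFX7, yet in normalised counts the rise was larger, 42772 in siRFX7 against 34761 in siControl, from a higher starting level; the difference in counts was not tested. CDKN1B fell by 742 normalised counts in siRFX7 and fell by 399 in siControl, so its estimated fall was larger in siRFX7 on both scales. CDKN2C fell by 962 in siControl and fell by 860 in siRFX7, where it started lower. CDKN2D fell by 81.5 in siControl and fell by 80.9 in siRFX7.

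The kinases and cyclins that these inhibitors bind mostly fell with Nutlin-3a. Of 12 listed genes 11 had entries. In siControl 2 were higher, 8 lower and 1 not called, beside 18.3% of all genes called higher and 19.6% lower. Their median log2 fold change was -0.46 beside 0.01 over all genes of the authors' deposited table. In siRFX7, 1 was higher, 8 were lower and 2 were not called, beside 18.7% of all genes called higher and 20.3% lower. The median there was -0.61 in the authors' deposited table. Cyclin A2, CCNA2, the partner of CDK2 in S phase, fell, at -0.9999 ± 0.04 in siControl and -1.31 ± 0.04 in siRFX7 per the authors' deposited tables. CDK2 fell, at -0.72 ± 0.04 in both, and CDK1, the mitotic kinase, fell, at -0.91 ± 0.06 and -1.05 ± 0.07 per the authors' deposited tables. Of the INK4 targets, CDK4 fell, at -0.25 ± 0.05 and -0.40 ± 0.05, while CDK6 was not called, at 0.08 ± 0.05 and 0.13 ± 0.07 per the authors' deposited tables. The 2 that rose in siControl were the D-type cyclins CCND1 (0.26 ± 0.04) and CCND2 (0.95 ± 0.04) per the authors' deposited table. CCND1 was not called in siRFX7, at -0.08 ± 0.04 per the authors' deposited table, and the responses differed by -0.33 ± 0.05 (adjusted p 4.40e-07).

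In the difference of the responses 4 of the 11 genes were called, all lower, beside the 0.764% of all genes given above. Besides CCND1 these were CCNB1 (-0.32 ± 0.06, adjusted p 2.72e-05), CCNA2 (-0.31 ± 0.06, adjusted p 1.16e-05) and CCNE1 (-0.28 ± 0.06, adjusted p 4.63e-04). CCNE1, the cyclin E that activates CDK2 at the start of S phase, was higher with siRFX7 by 0.82 ± 0.04 under DMSO and by 0.54 ± 0.04 under Nutlin-3a per the authors' deposited tables. CCNE1 and CDKN1A, which acts on cyclin E complexes, were both higher with siRFX7 under both treatments. CCNA2 was lower, at -0.51 ± 0.04 and -0.82 ± 0.04 per the authors' deposited tables. For all 11, the siRFX7 counts were 4 higher, 1 lower and 6 not called under DMSO, and 1 higher, 3 lower and 7 not called under Nutlin-3a. The shares over all genes were 19.9% higher and 17.5% lower under DMSO, and 17.2% and 15.4% under Nutlin-3a.

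**Figure D4:**
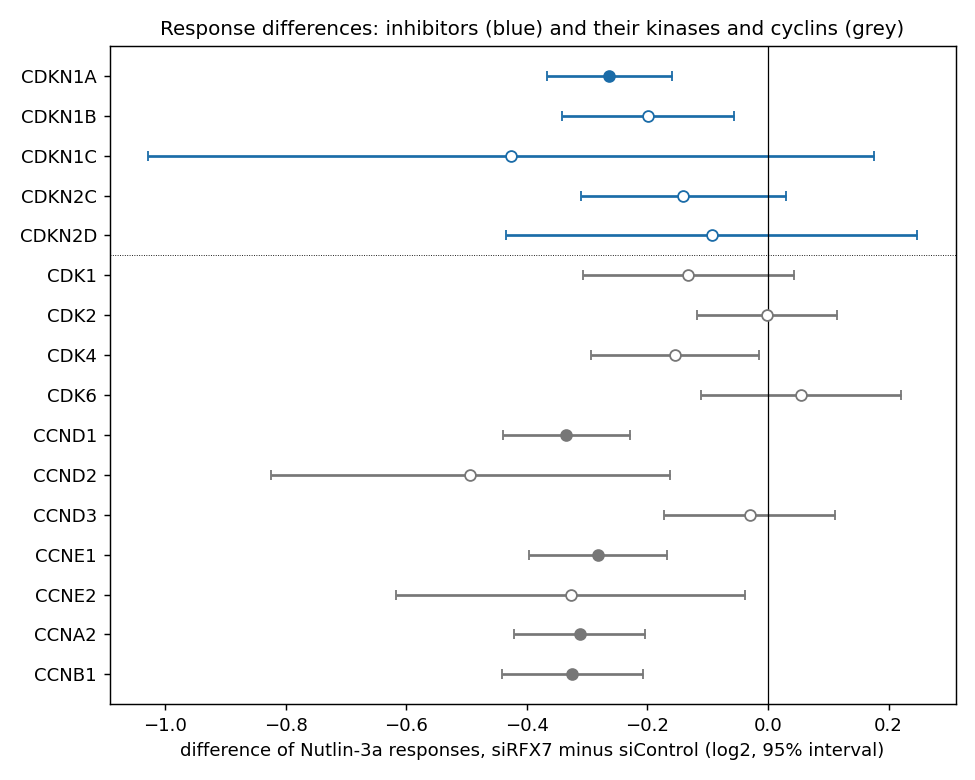
Difference of the Nutlin-3a responses (siRFX7 minus siControl, log2 scale, horizontal axis, with 95% intervals) for 5 inhibitor genes in blue and 11 kinase and cyclin genes in grey; filled points have an adjusted p under 0.05. CDKN1A, CCND1, CCNE1, CCNA2 and CCNB1 are filled, all below 0, and CDKN1C and CCND2 have the widest intervals.

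Downstream of the inhibitors, 8 listed genes of the RB1 and E2F families were read: RB1, RBL1, RBL2 and E2F1 to E2F5. The list did not hold the other E2F genes. Of the 8, 1 rose, 5 fell and 2 were not called with Nutlin-3a in siControl, and 1 rose, 6 fell and 1 was not called in siRFX7. Their medians were -0.20 and -0.32, beside 0.01 over all genes of each authors' deposited table. Of all genes, 18.3% were called higher and 19.6% lower in siControl, and 18.7% and 20.3% in siRFX7. The activator E2F1 fell, at -1.17 ± 0.04 and -1.25 ± 0.05, and E2F2 at -1.45 ± 0.07 and -1.52 ± 0.06 per the authors' deposited tables. RBL1, the p107 pocket protein of cycling cells, fell, at -0.90 ± 0.06 and -0.92 ± 0.06, whereas RBL2, the p130 pocket protein of resting cells, rose by 0.22 ± 0.04 and 0.13 ± 0.05 per the authors' deposited tables. With siRFX7 under DMSO, 3 of the 8 were higher and 0 lower, with the same counts under Nutlin-3a. The shares over all genes were 19.9% higher and 17.5% lower under DMSO, and 17.2% and 15.4% under Nutlin-3a. E2F2 was higher with siRFX7 by 0.70 ± 0.05 under DMSO per the authors' deposited table. None of the 8 differed between the responses (0 at an unadjusted p under 0.05 as well).

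Genes for the ubiquitin ligases that degrade the CIP/KIP proteins, listed with their cofactors CKS1B and PCNA, mostly fell with Nutlin-3a. Of 12, 1 rose, 9 fell and 2 were not called in siControl, and 1, 8 and 3 in siRFX7. Of all genes, 18.3% were called higher and 19.6% lower in siControl, and 18.7% and 20.3% in siRFX7. The medians were -0.22 and -0.17 over the authors' deposited tables, beside 0.01 over all genes of each. SKP2, which with CKS1B directs CDKN1B protein to degradation, fell, at -0.82 ± 0.05 in siControl and -0.62 ± 0.06 in siRFX7 per the authors' deposited tables. CKS1B fell, at -0.74 ± 0.08 and -0.71 ± 0.09, and DTL, the receptor that directs CDKN1A protein to degradation on PCNA, fell, at -1.06 ± 0.05 and -1.30 ± 0.06 per the authors' deposited tables. RNF123, the ligase that acts on CDKN1B in the cytoplasm, was the 1 that rose, by 0.25 ± 0.05 and 0.27 ± 0.05 per the authors' deposited tables. PCNA, which CDKN1A also binds, was the gene of this group whose responses differed, by -0.22 ± 0.05 (adjusted p 0.00816). With siRFX7, 3 were higher and 5 lower under DMSO, and 3 higher and 2 lower under Nutlin-3a. The shares over all genes were 19.9% higher and 17.5% lower under DMSO, and 17.2% and 15.4% under Nutlin-3a.

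Among 14 genes for factors known to act on the CIP/KIP promoters, 1 rose, 4 fell and 9 were not called with Nutlin-3a in siControl. Their median was -0.09 over the authors' deposited table. Of all genes there, 18.3% were called higher and 19.6% lower, with a median of 0.01. In siRFX7, 13 had entries, of which 1 rose, 7 fell and 5 were not called, with a median of -0.19 over the authors' deposited table. Of all genes there, 18.7% were called higher and 20.3% lower, with a median of 0.01. With siRFX7, 4 were higher and 1 lower under DMSO, and 1 higher and 1 lower under Nutlin-3a. The shares over all genes were 19.9% higher and 17.5% lower under DMSO, and 17.2% and 15.4% under Nutlin-3a. SP1, which binds the GC box, fell, at -0.32 ± 0.04 with Nutlin-3a in siControl and -0.31 ± 0.04 with Nutlin-3a in siRFX7 per the authors' deposited tables. FOXO1 and FOXO3 can induce CDKN1B. FOXO1 was higher with siRFX7 under DMSO, at 0.32 ± 0.08 per the authors' deposited table, while FOXO3 was not called there, at 0.02 ± 0.06. MYC, which represses CDKN1A through ZBTB17, was higher with siRFX7 under DMSO (0.18 ± 0.04) per the authors' deposited table, and its responses to Nutlin-3a differed by -0.21 ± 0.06 (adjusted p 0.0410).

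Regulators of the CDKN2A and CDKN2B locus could be measured although CDKN2A itself was not. Of 16 listed, 15 had entries, and 2 rose, 7 fell and 6 were not called with Nutlin-3a in siControl, against 1, 8 and 6 in siRFX7. The medians were -0.15 and -0.14 over the authors' deposited tables, beside 0.01 over all genes of each. Of all genes, 18.3% were called higher and 19.6% lower in siControl, and 18.7% and 20.3% in siRFX7. EZH2, the methyltransferase of Polycomb complex PRC2, fell, at -0.80 ± 0.05 and -0.92 ± 0.06, and the demethylase gene KDM6B rose by 0.41 ± 0.06 and 0.24 ± 0.06 per the authors' deposited tables. With siRFX7, 7 of the regulators were higher and 3 lower under DMSO, and 3 higher and 4 lower under Nutlin-3a. The shares over all genes were 19.9% higher and 17.5% lower under DMSO, and 17.2% and 15.4% under Nutlin-3a. Among the regulators RING1, a PRC1 ubiquitin ligase, had the lowest siRFX7 value under DMSO, at -0.85 ± 0.05 per the authors' deposited table, with -0.72 ± 0.06 under Nutlin-3a. None of the 15 was called in the difference of the responses, with 1 at an unadjusted p under 0.05.

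Genes near the members on the chromosome did not share their changes throughout. Within 100 kb of CDKN1A, 4 of 11 annotated genes had an entry, and 0 rose and 1 fell with Nutlin-3a in siControl: SRSF3, a splicing factor 70.9 kb away, at -0.35 per the authors' deposited table. The antisense transcript DINOL, which overlaps CDKN1A, had a base mean of 3.96 and a log2 fold change of 1.65 ± 0.84 (adjusted p 0.111) per the authors' deposited table. Whether reads were counted by strand was not given in the sources used here, so reads of this pair may not be separated. FAF1, 0.482 kb from CDKN2C, also fell with Nutlin-3a, by 0.34 ± 0.04 per the authors' deposited table, but was higher with siRFX7 under DMSO (0.31 ± 0.04), where CDKN2C was lower. Around CDKN2D 10 of 13 neighbours had entries, of which 1 rose and 7 fell with Nutlin-3a in siControl. Over all genes, 18.3% were called higher and 19.6% lower there, shares that include low-count genes and so are low for most of these neighbours. MTAP, 30.1 kb from CDKN2A, was present in all 4 tables; with Nutlin-3a in siControl its base mean was 1312 and it fell, at -0.38 ± 0.05 per the authors' deposited table.

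Each member's 4 log2 fold changes were also set against those of about 12080 named genes whose base mean reached 100 in every table, by Euclidean distance. This ranking is a description, and the 4 values share groups. Among the genes nearest to CDKN1A, MDM2, whose product binds and degrades p53, lay at a distance of 0.860. MDM2 was strongly higher with Nutlin-3a, at 2.89 in siControl and 2.76 in siRFX7 per the authors' deposited tables, but stood at -0.00 with siRFX7 under DMSO, where CDKN1A was at 0.60. CDKN2C lay closer to its nearest gene, MCM10 (0.0764), followed by DTL (0.226) and FEN1 (0.245), which encode proteins of DNA replication and its control. MCM10 stood at -1.25 with Nutlin-3a in siControl and -0.25 with siRFX7 under DMSO per the authors' deposited tables. CDKN1B lay nearest to MAT1A (0.0893), PRPF4 (0.0922) and PPP5D1 (0.0949), CDKN2D to MDC1 (0.0410), POP7 (0.0433) and HMGB3 (0.0609), and CDKN1C, whose values are imprecise, to NRG1 (0.0622), LYPD6 (0.115) and PRKCZ (0.143).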

How the data were processed

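The 7 members, the gene lists, the thresholds and the alternatives were chosen with earlier results of these data known. Libraries were prepared with a stranded poly(A) kit from 500 ng of total RNA, per the labels' protocols. The submitters' processing notes name bcl2fastq 2.19.1.403, Trimmomatic 0.39, cutadapt 2.10, FastQC 0.11.9, SAMtools 1.10, Picard, featureCounts 1.6.5, DESeq2 1.20.0 and build hg38. The aligner, the annotation, the strand setting and any shrinkage of fold changes are not given in the sources used here.

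The authors deposited 4 tables of DESeq2 comparisons, each of 8 libraries. Per the file headers, their values are base means (a signal: mean normalised count), log2 fold changes with standard errors, Wald statistics (a score), p-values and adjusted p-values; the p-values and log2 values were used as deposited. With equal groups, base mean and fold change give both group means. Tables were normalised separately and were brought to the scale of the siControl table with factors of 1.32, 1.11 and 1.18, a step chosen after seeing the data. The difference of the responses used a normal test on the deposited log2 values and standard errors. It was run on simulated data drawn with normal errors of those same sizes, which cannot show whether the errors suit the real libraries. The Benjamini-Hochberg adjustment of the difference ran over 21339 genes.

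Exon lengths and positions are from GENCODE 29 on GRCh38, which held 99.85% of gene identifiers. Promoter windows are from RefSeq (GRCh38.p14): 6 of the 7 members matched. Named genes are RFX7, the members, 6 lists (70 genes) of partners and regulators, genes within 100 kb of a member, and the 3 nearest patterns of each member; some of these are not reported here. Depth per library is unknown beyond the base mean sums. Python 3.11.15, pandas 2.3.3, NumPy 2.4.6, SciPy 1.17.1 and matplotlib 3.10.9 were used.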

Additional observations from a re-analysis of the deposited data

Results flagged for a closer look

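The CDKN1A response to Nutlin-3a differed between the siRNA groups in a test of the difference itself: the log2 fold change was 3.24 in siControl and 2.98 in siRFX7 per the authors' deposited tables, a difference of -0.263 ± 0.053 (SE, adjusted p 3.05e-04). With the test statistics rescaled by their spread among genes of like base mean, its adjusted p was 0.0123. That is under 0.05 but not under 0.01, and 135 genes were called there in place of 200. In normalised counts the rise was larger in siRFX7, 42772 against 34761. The library counts behind these means were not analysed here, so the difference has no check by single library.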

How the results depend on the processing

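No paired analysis was possible because the files hold comparisons of groups and no value of a single library; for the same reason no library was left out in turn. Over a stricter threshold, a size minimum, recentring, a base mean minimum, rescaled errors and the other pair of tables, 107 recomputed member results kept their direction and their side of the threshold and 1 did not, CDKN1C with Nutlin-3a in siControl, at 0.55 with an adjusted p of 0.0112 against a threshold of 0.01. CDKN1C and CDKN2B fall below the base mean minimum and were not recomputed under it. With Nutlin-3a in siControl, 4 members in place of 5 were therefore called there. The stricter threshold and the size minimum reuse the same fold changes and adjusted p-values. Under them no direction could change and no uncalled gene could become called. With a log2 change of at least 0.25 required, 4501 genes were called with siRFX7 under DMSO in place of 7288 (2248 higher, 2253 lower), and 4020 under Nutlin-3a in place of 6625 (1933 higher, 2087 lower); the rule itself removes small changes. At a threshold of 0.01 the difference of the responses had 125 calls (22 higher, 103 lower) in place of 200. Of 65 recomputed levels 20 moved beyond their interval, 16 where tables were not brought to 1 scale (CDKN1A in siRFX7 with DMSO 5147 in place of 6209) and 4 per kb of the longest transcript (CDKN1A in siControl with DMSO 1812 in place of 1347). Low counts limit CDKN1C and CDKN2B, whose intervals include both directions in most or all of their comparisons.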

Other observations

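The genes named for the CDK inhibitors without belonging to either family were read from the same tables. CDKN3, a phosphatase that acts on CDK2 and is expressed in cycling cells, fell with Nutlin-3a, at -0.70 ± 0.04 in siControl and -0.80 ± 0.05 in siRFX7, and was lower with siRFX7 at -0.22 ± 0.05 under DMSO and -0.32 ± 0.05 under Nutlin-3a per the authors' deposited tables. CDKN2AIPNL fell, at -0.34 ± 0.05 and -0.34 ± 0.06 with Nutlin-3a per the authors' deposited tables. KCNQ1OT1, the imprinted antisense RNA whose domain includes CDKN1C, was not called in any comparison, with -0.31 ± 0.17 for Nutlin-3a in siControl per the authors' deposited table. CDKN2B-AS1, CDKN2A-AS1, CDKN1A-AS1 and PANDAR had no entry under these symbols.

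The heptamer GTATCTA and the hexamer GACGTA had been picked from the siRFX7 fold changes of these same tables, so their presence supports nothing by itself. The longest annotated 3′ UTR of RFX7 and of CDKN2B held GTATCTA, and 0 of the 5 members with full data held either word. Over 11174 genes whose base mean reached 100, 8.44% held GTATCTA and 5.44% held GACGTA.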
